A study of Homo sapiens with 4 samples.

Results

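Splicing factor and heterogeneous nuclear ribonucleoprotein (hnRNP) genes were followed in poly(A) RNA of Panc1, an established line of human pancreatic carcinoma cells. The label HMGB2 siRNA was on 2 libraries and the label scramble siRNA on 2. The members were chosen by a rule on gene symbols that uses no measured value, but that was set with earlier results of these data known. They are the SRSF, TRA2, HNRNP, PTBP, SNRP, SF3A and SF3B, U2AF, PRPF and numbered RBM genes outside chromosome Y, which gave 301 of the 54628 genes in the deposited tables. Of these members 185 are annotated as pseudogenes in RefSeq and 116 as protein-coding genes. Both groups are the same cell line, and their labels name different siRNAs. The labels do not say whether the 2 libraries of a group came from separate cultures, so p-values here rest on library-to-library spread that may be technical.

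HMGB2, the chromatin protein gene that the siRNA targets (GRCh38 chromosome 4, 173331376 to 173334358), went against the labels. Its counts were 4021 and 2746 under the label HMGB2 siRNA but 346 and 319 under the label scramble, which is 128 and 134 against 15.7 and 15.3 CPM (counts scaled to the library's size and composition). The level was thus 8.43-fold higher under the label HMGB2 siRNA (log2 fold change 3.07 ± 0.08 SE, edgeR quasi-likelihood test, adjusted p = 1.54e-33). The header of the count column also names the other treatment in all 4 tables. Whether the labels of the groups were exchanged was not tested. Groups keep their labels below. "Higher" and "lower" always describe the label HMGB2 siRNA, where HMGB2 was high, relative to the label scramble, where HMGB2 was low.

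The library totals were 31852391 and 20976561 counts for the label HMGB2 siRNA and 21874647 and 20340695 for the label scramble, so a gene without reads could still have had up to 3 counts, or 0.0942 to 0.147 CPM before scaling for composition (counting error only). Epithelial markers (6 genes) summed to 5953 to 5986 TPM (a level per exon length) in the libraries labelled HMGB2 siRNA and 4410 to 5435 TPM in those labelled scramble. Of the 6, 4 were called higher, where 16.7% of all tested genes were. KRT8 and KRT18, which are part of this sum, overlap each other's exons on opposite strands. Whether strand was used in counting is not given in the sources used here. Endocrine markers (INS, GCG and CHGA) had 0 counts in all libraries, leukocyte markers summed to at most 0.0943 TPM with CD3E at 0, endothelial markers to at most 0.0779 TPM, and acinar markers to at most 0.438 TPM with PRSS1 at 0. Fibroblast markers summed to 24.4 to 24.8 TPM against 23.3 to 31.2 TPM, nearly all from COL1A1, with DCN at 0. PRSS1 and CHGA are also listed on alternative sequences, which makes their 0 uncertain. The mesenchymal marker VIM had 2614 to 2794 against 2494 to 2499 TPM and was not called.

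Splicing removes introns in steps carried out by small nuclear ribonucleoproteins (snRNPs). Most snRNPs hold a ring of Sm proteins, largely encoded by SNRP genes, while the SF3A, SF3B and U2AF proteins select the branch point and the 3′ splice site and the PRPF proteins act in the tri-snRNP and in the catalytic core. SR proteins (SRSF and TRA2 genes) mostly favour the use of an exon and hnRNPs often oppose it, and many of these genes control their own transcript level through exons that lead to decay of the mRNA. Reads were counted per gene, so forms of a transcript with and without such exons were not separated here.

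Of the 301 members, 123 had enough counts to be tested (106 protein-coding genes and 17 pseudogenes), and 95 had 0 counts in all 4 libraries. Together the members held 1.51% and 1.52% of the summed TPM under the label HMGB2 siRNA but 1.40% and 1.39% under the label scramble. Per exon length HNRNPA2B1, an hnRNP core protein gene, had the highest level at 960 ± 24 TPM (SD, n = 4 libraries). SNRPB, which encodes the Sm proteins B and B′, followed at 791 ± 85 TPM, and HNRNPK, a poly(C)-binding hnRNP, at 602 ± 26 TPM. The next places went to U2AF2 (540 ± 11 TPM) and HNRNPL (536 ± 60 TPM), whose order is within their spread, and to SNRPC (484 ± 71 TPM). HNRNPA1 stood at 437 ± 114 TPM, the widest spread of these genes. These SDs run over both labels and so include the difference between them, which was called for SNRPB, HNRNPL, SNRPC and HNRNPA1 (below).

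Of the 123 tested members, 33 (26.8%) were higher and 4 (3.25%) lower in the libraries labelled HMGB2 siRNA, and 86 did not pass (edgeR quasi-likelihood test, Benjamini-Hochberg adjusted over all 15161 genes tested). Over all tested genes 16.7% were called higher and 14.1% lower. In either direction the share was 30.1% for the members and 30.8% for all genes. By family the share called higher was 36.4% for SRSF, 24.2% for HNRNP, 31.25% for SNRP and 55.6% for SF3A and SF3B. It was 66.7% for PTBP (3 genes tested), 20% for RBM, 16.7% for PRPF and 0% for TRA2 and U2AF. The share called lower was 8.57% for RBM, 3.03% for HNRNP and 0% for the other families. On the log2 scale the median difference was 0.09 for the tested members but -0.01 for all tested genes. The called differences were small: the median was 0.26 for members called higher and -0.25 for those called lower, against 0.40 and -0.40 for all genes called. The tested members had a median level of 46.0 TPM (a level per exon length), against 11.7 TPM for all tested genes. The shares and medians given here thus compare genes of unlike level, and they were not matched for it. By more than 1.5-fold 5 of the 123 members were called higher, where 698 (4.6%) of all tested genes were. By more than 2-fold 1 member was called higher, and none of the 4 called lower reached a 1.5-fold difference. These last counts were not made over all tested genes, so neither has a share to be set beside it. In bulk samples such as these, fewer cells of a type and less RNA per cell cannot be told apart.

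The number of members called higher fell when either library labelled HMGB2 siRNA was left out, and changed less without a scramble library. Without a library labelled HMGB2 siRNA, the spread is estimated from the 2 libraries labelled scramble alone. These differed more from each other (chi-square per degree of freedom 5.23, against 2.93 for the label HMGB2 siRNA). A call lost in this way, here and below, cannot tell reliance on the library left out from this wider spread. Without replicate 1 labelled HMGB2 siRNA, 14 members were called higher (11% of those tested, where 9.35% of all genes were) and 1 was called lower (all genes 5.7%). When replicate 2 of that label was left out instead, 14 were called higher (11.2%, all genes 10.1%) and 4 lower (all genes 6.44%). Leaving out scramble replicate 1 gave 37 higher (all genes 18.5%) and 6 lower (14.6%), and leaving out scramble replicate 2 gave 32 higher (16.3%) and 7 lower (12.8%). Scaling mattered as well: 89.2% of the called members were higher with TMM factors, but 71% with upper-quartile factors (22 higher, 9 lower) and 73.5% with total counts (25 higher, 9 lower), beside 54.3%, 42% and 43.3% of all called genes. With upper-quartile factors 13.4% of all genes were called higher and 18.5% lower, and with total counts 13.3% and 17.4%. DESeq2 called 29 members higher (all genes 12.7%) and 4 lower (8.47%). Of the 37 called members, 11 kept the call in each of the 12 alternative settings run: RBM24, SRSF11, HNRNPA1, SNRPD3, RBM17, RBM12, SNRPC, PTBP1, SF3B4 and HNRNPL, all higher, and RBM19, lower. Kept calls were not counted over all called genes. Whether this share of members is unlike that of other called genes is therefore not known.

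**Figure D1:**
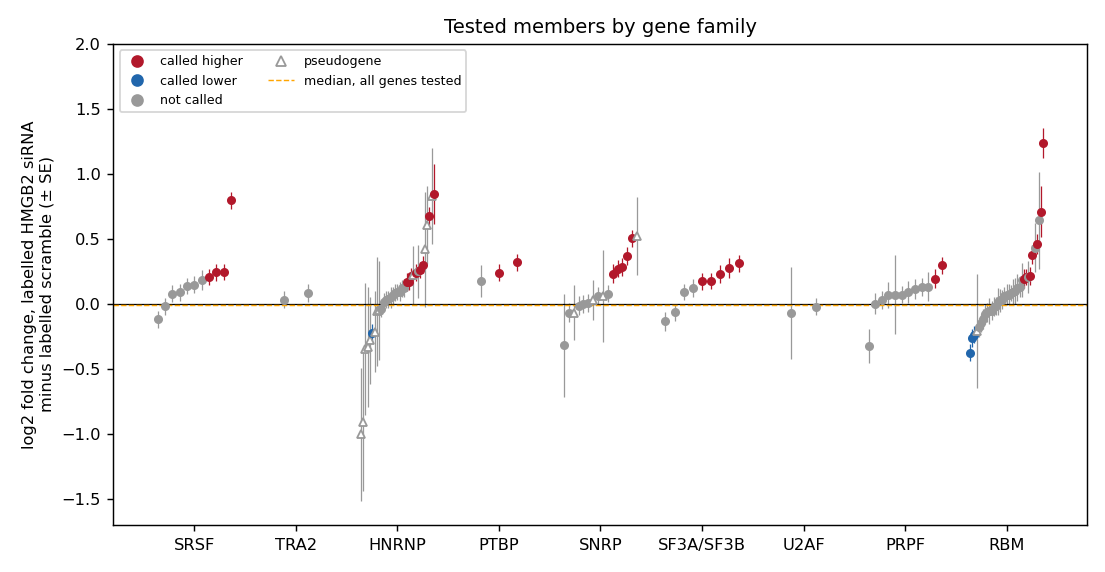
Log2 fold change (labelled HMGB2 siRNA minus labelled scramble, ± SE from edgeR) of the 123 tested members, grouped by family and sorted within it. Red points passed the test as higher (33), blue as lower (4), grey did not pass, open triangles are pseudogenes, and the dashed line is the median of all tested genes.

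SR proteins bind exonic enhancers and recruit the splicing machinery. Of 12 SRSF genes 11 were tested, 4 were higher and none was lower, with a median log2 fold change of 0.15. SRSF11 (chromosome 1, 70205696 to 70253052), an SR-related protein that associates with U2AF, stood apart from the rest of its family. Its level was 210 and 221 CPM under the label HMGB2 siRNA and 122 and 125 CPM under the label scramble. The groups were far from overlapping, and SRSF11 was 1.74-fold higher (log2 0.80 ± 0.07 SE, edgeR adjusted p = 2.77e-14). The other 3 called members moved much less. SRSF6 (1.19-fold), SRSF3 (1.18-fold) and SRSF10 (1.15-fold), regulators of alternative exons, had adjusted p from 0.00233 to 0.0112, and each lost the call without replicate 1 labelled HMGB2 siRNA (adjusted p = 0.096, 0.129 and 0.211) with log2 values close to those with all libraries (0.24, 0.22 and 0.20). SRSF6 and SRSF10 also lost it without replicate 2 of that label (0.0604 and 0.122), and SRSF10 with upper-quartile and total-count scaling. SRSF1, the founding member of the family, had 360 and 369 against 326 and 359 CPM and did not pass (log2 0.09 ± 0.07, adjusted p = 0.326), but passed without scramble replicate 2 (log2 0.16, adjusted p = 0.0238). SRSF5 had the lowest value of the family, -0.12, and did not pass. SRSF12 had 3 to 12 counts per library, too few to test. The SR-like genes TRA2A (log2 0.08 ± 0.07) and TRA2B (0.03 ± 0.06) did not pass either.

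The hnRNP family held 151 of the members, 125 of them pseudogenes. Of 33 tested, 8 were higher and 1 lower, with a median of 0.09. HNRNPA1 (chromosome 12, 54280726 to 54287087), a nuclear RNA-binding protein that represses splice sites and shuttles to the cytoplasm, moved most among the abundant ones. It had 801 and 856 CPM in the libraries labelled HMGB2 siRNA against 558 and 478 CPM, and was higher (log2 0.68 ± 0.07 SE, edgeR adjusted p = 2.72e-11). Its close relatives did not follow. HNRNPA2B1 had 1422 and 1510 against 1449 and 1455 CPM (log2 0.01 ± 0.07, adjusted p = 0.907), and HNRNPA3 was lower, with 407 and 475 against 499 and 532 CPM (log2 -0.23 ± 0.07, adjusted p = 0.0088). The call of HNRNPA3 was lost without replicate 1 labelled HMGB2 siRNA (log2 -0.11, adjusted p = 0.544). Within single libraries the TPM of HNRNPA1 was 0.557 and 0.560 times that of HNRNPA2B1 under the label HMGB2 siRNA and 0.380 and 0.325 times under the label scramble, a ratio that does not depend on scaling and that was picked after the values were seen.

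HNRNPA1 has many processed copies, and how reads shared with them were counted is not given in the sources used here, so values of both are uncertain. HNRNPA1L3, an intronless copy annotated as coding and singled out after its values were seen, had 145 and 76 counts against 50 and 50 and was called higher (log2 0.85 ± 0.23 SE, edgeR adjusted p = 0.0035), a call lost without replicate 1 labelled HMGB2 siRNA (0.67, adjusted p = 0.161). The copies HNRNPA1P10 (0.83 ± 0.37) and HNRNPA1P7 (0.61 ± 0.30) had values of similar size without passing, while HNRNPA1P49 (-0.91 ± 0.53), HNRNPA1P59 (-0.35 ± 0.51) and HNRNPA1P16 (-0.33 ± 0.46) lay on the other side. Each of these copies had under 5 CPM, and 0 of the 17 tested pseudogenes among all members was called.

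HNRNPL, which binds CA repeats, had 645 and 651 against 545 and 507 CPM and was 1.23-fold higher (edgeR adjusted p = 0.000255). HNRNPAB (1.20-fold, adjusted p = 0.00126) and HNRNPH1, which binds G-rich tracts (1.18-fold, adjusted p = 0.00342), were also higher, but both lost the call without replicate 2 labelled HMGB2 siRNA (adjusted p = 0.0602 and 0.261). HNRNPAB overlaps exons of PHYKPL on the opposite strand, and whether strand was used in counting is not given in the sources used here. HNRNPL and HNRNPH1 are each listed on an alternative sequence of the assembly too. HNRNPUL1 (1.16-fold, adjusted p = 0.0101), HNRNPM (1.13-fold, 0.035) and HNRNPDL (1.12-fold, 0.0499) completed the 8 called higher, and each lost the call in 4 or more of the 12 settings. Several abundant hnRNPs did not pass, among them HNRNPC (log2 0.04 ± 0.07), HNRNPK (0.12 ± 0.06), HNRNPU (0.03 ± 0.06) and HNRNPF (-0.04 ± 0.06).

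**Figure D2:**
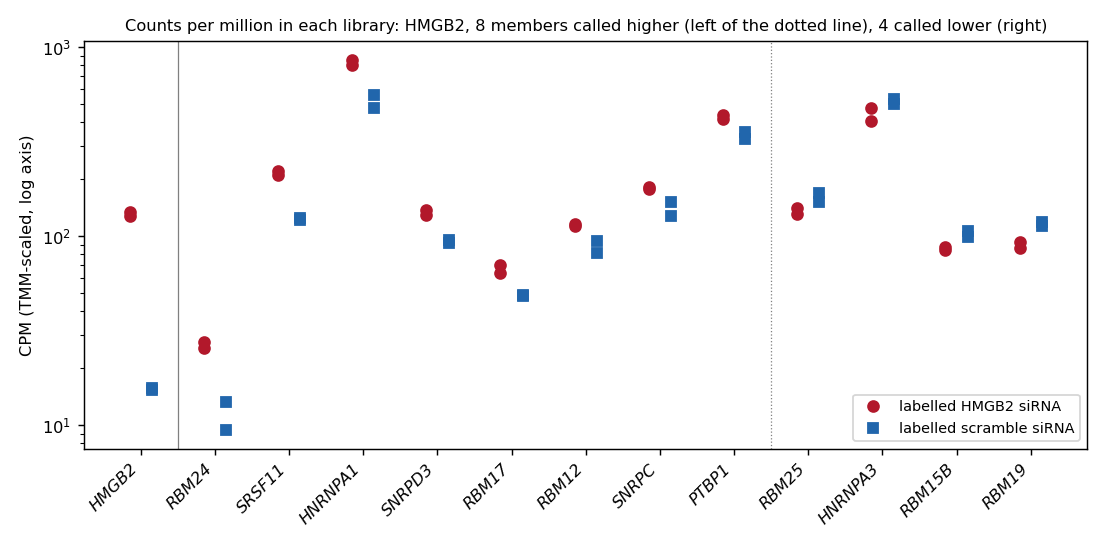
CPM (log axis) of HMGB2, of 8 members called higher and of the 4 called lower in each library, with circles for the label HMGB2 siRNA and squares for the label scramble. The members drawn were picked among called members whose groups do not overlap, so the lack of overlap follows from the choice. All 37 called members had groups that do not overlap, and the share over all genes was not counted. The widest gap among members is that of RBM24, and HNRNPA3 and RBM25 have the narrowest gaps among those called lower.

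Of the polypyrimidine tract-binding proteins, which repress exons flanked by pyrimidine-rich introns, 2 of 3 were higher. PTBP1 had 436 and 417 against 356 and 326 CPM and was higher (log2 0.32 ± 0.07, edgeR adjusted p = 0.000101). PTBP3 had 167 and 169 against 138 and 147 CPM and was 1.18-fold higher (adjusted p = 0.00362), a call lost without either library labelled HMGB2 siRNA (adjusted p = 0.0853 and 0.101). PTBP2, the form known from neurons, was low at 473 and 266 against 257 and 276 counts and did not pass (log2 0.18 ± 0.12). PTBP1 overlaps exons of PLPPR3 on the opposite strand.

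SNRP genes encode the Sm ring and proteins particular to U1 and U2. Of 71 members 59 are pseudogenes, and of 16 tested 5 were higher and none was lower. SNRPD3, an Sm ring protein (chromosome 22, 24555650 to 24574971), had 129 and 138 against 92.3 and 95.5 CPM, with the groups well apart, and was 1.42-fold higher (log2 0.51 ± 0.07 SE, edgeR adjusted p = 3.53e-08). The other Sm ring genes were not uniform. SNRPG (1.22-fold) and SNRPB (1.21-fold) were higher, with the calls lost without replicate 1 labelled HMGB2 siRNA for SNRPG (adjusted p = 0.0595) and without replicate 2 for SNRPB (0.0795). SNRPD1 (-0.07 ± 0.07), SNRPD2 (0.08 ± 0.07), SNRPE (0.00 ± 0.07) and SNRPF (0.01 ± 0.07) did not pass. SNRPC, a U1 protein that contacts the 5′ splice site, had 183 and 178 against 152 and 128 CPM and was 1.29-fold higher (adjusted p = 3.47e-05), and SNRPA, also of U1, was called at 1.18-fold (adjusted p = 0.00937), a call lost without either library labelled HMGB2 siRNA (largest adjusted p = 0.144). The U2 proteins SNRPA1 (-0.01 ± 0.07) and SNRPB2 (0.06 ± 0.07) did not pass. SNRPD3 shares exonic sequence with GUCD1 and SNRPA with C19orf54, both on the opposite strand.

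All 9 SF3A and SF3B genes, which form the branch-point-binding part of U2, were tested; 5 were higher and none was lower, with a median of 0.17. SF3B4 had 154 and 149 against 127 and 117 CPM and was 1.24-fold higher (edgeR adjusted p = 0.000222). SF3A2 (1.21-fold), SF3B6 (1.17-fold), SF3B2 (1.13-fold) and SF3A3 (1.13-fold) were closer to the threshold, and each of these 4 lost the call without either library labelled HMGB2 siRNA (largest adjusted p from 0.104 for SF3A2 to 0.449 for SF3A3). The calls of SF3B6, SF3B2 and SF3A3 were also lost with upper-quartile and total-count scaling and without scramble replicate 2. SF3B6 overlaps exons of FKBP1B on the opposite strand. SF3B1, the large scaffold subunit, had 463 and 470 against 469 and 505 CPM, with a log2 value of -0.06 ± 0.06 that did not pass. Its partners SF3B3 (0.09 ± 0.06), SF3A1 (0.12 ± 0.07) and SF3B5 (-0.13 ± 0.07) did not pass either. U2AF2, the pyrimidine-tract subunit of the U2 auxiliary factor, was level (698 and 723 against 738 and 705 CPM, log2 -0.02 ± 0.06, adjusted p = 0.834).

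A few core members were almost without counts. U2AF1, the partner of U2AF2 that reads the 3′ splice site, had 40 and 26 against 25 and 32 counts. PRPF8, the central scaffold of the catalytic core, had 14, 3, 7 and 8 counts and was not tested, and PRPF31 had 56, 37, 35 and 38. The exons of PRPF8 are listed on 1 alternative sequence and those of PRPF31 on 9 of the assembly. The counting of reads that fit several places is not given in the sources used here, and its part in these low counts was not tested. HNRNPH2 (1 to 6 counts) shares exons with the read-through gene RPL36A-HNRNPH2, and SNRPN (16 to 30 counts) with SNURF. In all, 9 of the 116 members that are not pseudogenes are also listed on alternative sequences, and 10 of the 116 were not tested.

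Of 12 tested PRPF genes 2 were higher and none was lower. PRPF19, a ubiquitin ligase of the activated spliceosome, had 203 and 216 against 176 and 166 CPM and was 1.23-fold higher (edgeR adjusted p = 0.000322), a call lost without replicate 2 labelled HMGB2 siRNA (adjusted p = 0.0624). PRPF3, a tri-snRNP protein, was 1.14-fold higher with an adjusted p of 0.033, and lost the call in 5 of 12 settings, DESeq2 among them (adjusted p = 0.0884). PRPF40B had the lowest value of the family and did not pass (log2 -0.33 ± 0.13, adjusted p = 0.0527).

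The RBM symbols join RNA-binding proteins of different roles, and here both directions occurred: of 35 tested, 7 were higher and 3 lower. RBM24 (chromosome 6, 17281361 to 17293875), known as a splicing regulator of muscle, had the largest difference of all tested members. It had 864 and 526 counts against 207 and 275, or 27.5 and 25.6 against 9.40 and 13.2 CPM. The low group was spread widely but stayed below the high group, and RBM24 was 2.36-fold higher (log2 1.24 ± 0.12 SE, edgeR adjusted p = 2.71e-12). Its level was modest, 18.4 against 7.98 TPM. RBM17, a factor of 3′ splice site choice, had 64.1 and 70.1 against 48.4 and 49.1 CPM (1.37-fold, adjusted p = 3.37e-06). RBM12 had 112 and 116 against 93.8 and 81.8 CPM (log2 0.38 ± 0.07, adjusted p = 2.53e-05) and shares exons with CPNE1 on the same strand. RBM3, a cold-inducible protein and the most abundant RBM gene by CPM, was 1.16-fold higher (adjusted p = 0.0103), a call lost without either library labelled HMGB2 siRNA (adjusted p = 0.154 in both) and with upper-quartile scaling. RBM42 (1.16-fold, adjusted p = 0.0102) and RBM14 (1.15-fold, 0.0293) were also called higher, and lost the call in 4 and 6 of the 12 settings. RBM47, singled out after its values were seen, was low (191 and 113 against 66 and 86 counts, log2 0.71 ± 0.20), and its call (adjusted p = 0.0045) was lost without replicate 1 of the label HMGB2 siRNA (0.0919) and also without scramble replicate 1.

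On the lower side, RBM19, a protein of ribosomal RNA processing rather than splicing (chromosome 12, 113816740 to 113966371), had 86.1 and 92.9 against 119 and 113 CPM. Both high values belong to the libraries labelled scramble, and the log2 fold change was -0.37 ± 0.07 (SE, edgeR adjusted p = 1.99e-05). RBM15B, a partner of the RNA methylation complex, had 84.0 and 87.2 against 106 and 99.1 CPM (log2 -0.26 ± 0.07, adjusted p = 0.00225), and RBM25, a regulator of alternative splicing, 131 and 141 against 152 and 169 CPM (log2 -0.24 ± 0.07, adjusted p = 0.00557). Both lost the call without replicate 1 labelled HMGB2 siRNA (adjusted p = 0.14 and 0.269). RBM15B overlaps exons of DCAF1 and RBM25 those of RBM25-AS1 on the opposite strand. The abundant RBM39 (log2 0.08 ± 0.06) and the tumour-associated splicing regulators RBM5 (-0.12 ± 0.08), RBM6 (-0.07 ± 0.07) and RBM10 (-0.02 ± 0.07) did not pass.

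**Figure D3:**
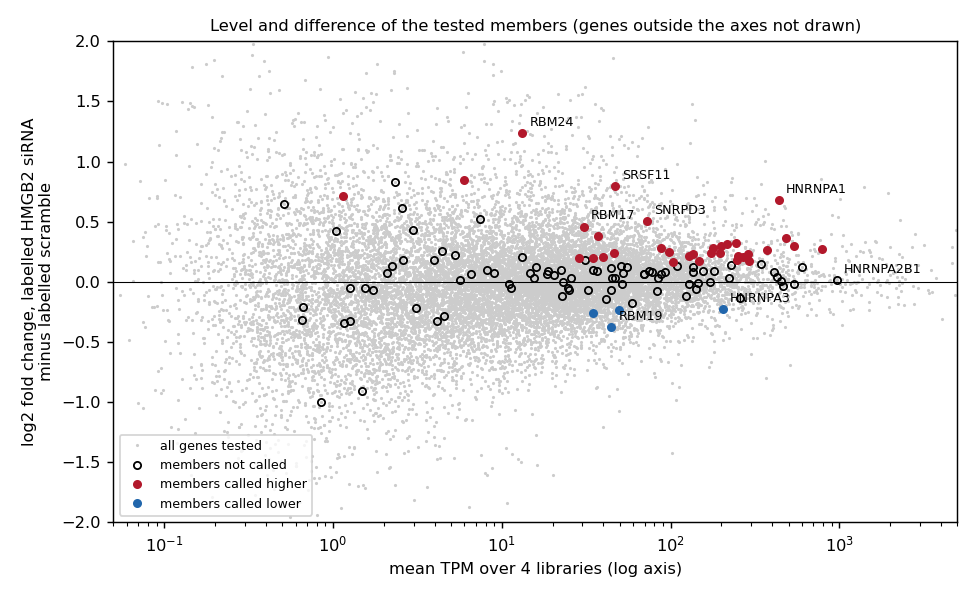
Mean TPM over the 4 libraries (log axis) against log2 fold change (labelled HMGB2 siRNA minus labelled scramble) for the tested members, over all tested genes in grey. HNRNPA1 is the abundant member farthest from 0 (437 TPM, 0.68), RBM24 is farthest overall (13.2 TPM, 1.24), and HNRNPA2B1, the most abundant, lies at 0.01.

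Summed over each family, TPM was higher in both libraries labelled HMGB2 siRNA for every family but U2AF, a description that mixes called and uncalled genes. As a share of counts, which takes no account of length, the TRA2 groups overlapped (0.0283% and 0.0281% against 0.0285% and 0.0279%) and the RBM groups nearly met (0.260% and 0.264% against 0.258% and 0.260%). The hnRNP genes summed to 5754 ± 131 against 5296 ± 55 TPM (SD, n = 2 each), the SNRP genes to 3213 ± 29 against 2879 ± 114 TPM and the SRSF genes to 1562 ± 48 against 1444 ± 25 TPM. The PTBP genes summed to 321 ± 12 against 264 ± 4.5 TPM, the farthest apart in relative terms. The U2AF sum, nearly all U2AF2, was 533 ± 7.9 against 551 ± 3.2 TPM. TPM uses no TMM factor. For a single sum in 4 libraries the smallest p of a two-sided exact permutation test is 0.333, so no test is given.

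**Figure D4:**
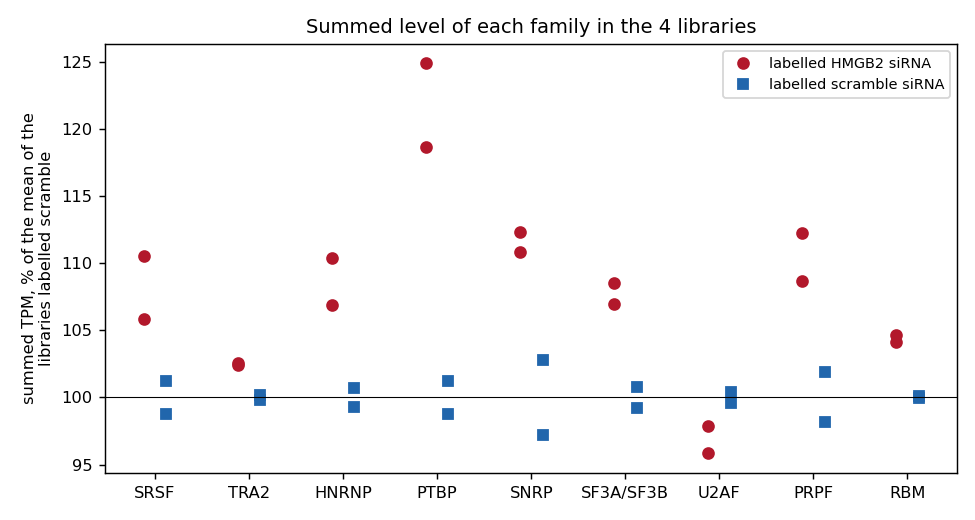
Summed TPM of each family in each library, as a percentage of the mean of the 2 libraries labelled scramble (100, line). Circles are libraries labelled HMGB2 siRNA and squares those labelled scramble; PTBP lies highest, at 125 and 119, and U2AF is the single family below the line, at 95.8 and 97.8.

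The 3′ untranslated regions (3′UTRs) of the called members were searched on the transcript strand for the heptamer GACAAAG as well as for the overlapping heptamers ATAGTAA and then AATAGTA, because an earlier regression on these same fold changes had tied these words to higher values over all genes. That choice makes any count a description. Of 32 members called higher with an annotated 3′UTR, 7 (21.9%) held at least 1 of the words, against 19 of 69 members not called (27.5%) and 0 of the 4 called lower. Over all tested genes the shares were 41.4%, 23.1% and 19.1%. The difference between these shares was not tested. The median 3′UTR length was 827 bases for members called higher, 1534 for those not called and 3964 for those called lower. Over all tested genes it was 1620 bases for those called higher, 1251 for those not called and 1496 for those called lower. The shares were not matched for length, so those of members and of all genes come from unlike searched lengths. The 7 members were RBM24, SRSF11, RBM47, SRSF10, RBM14, PRPF3 and HNRNPDL. The words were found through these same fold changes, so their presence in genes with large differences is partly built in. The sites of RBM24, SRSF11 and RBM47, picked among the 7 for a difference over 1.5-fold, are shown on GRCh38. They are given with 11 bases on each side, in lower case, and the words in capitals.
RBM24, chr6:17293194-17293223, plus strand: tactgtgccttAATAGTAAtgctatttaag
SRSF11, chr1:70252100-70252128, plus strand: catatttcagtATAGTAAaaagaggaagt
SRSF11, chr1:70252371-70252399, plus strand: gtacagtactaAATAGTAttcatttatga
SRSF11, chr1:70252998-70253026, plus strand: ttgtgtatttgATAGTAAattgatttaaa
RBM47, chr4:40424791-40424819, minus strand: gagtttgtaggGACAAAGaatgtatgtta
In RBM24 both overlapping words share 1 site, and SRSF11 holds 3 separate sites. HNRNPA1, SNRPD3, RBM17, RBM12, SNRPC and PTBP1, also among the members with the largest differences, held none of the words in their longest annotated 3′UTR. Whether the siRNAs acted on these transcripts was not tested.

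Other genes of the pathway were counted in lists by function, chosen like the members with earlier results of these data known. Over all tested genes 16.7% were called higher and 14.1% lower, the shares to set beside the counts of each list. Of 53 tested spliceosome genes outside the rule, 13 were higher and 2 lower, with a median log2 fold change of 0.07. They included PPIH, a cyclophilin of the tri-snRNP, with 53.4 and 54.2 against 39.2 and 35.1 CPM (1.45-fold, edgeR adjusted p = 5.71e-07), CDC40, a second-step factor (1.23-fold), and SNRNP27 on the lower side (log2 -0.31 ± 0.09). CDC40 lost the call without replicate 1 labelled HMGB2 siRNA (adjusted p = 0.115) and SNRNP27 without either library of that label (largest adjusted p = 0.107). Among 52 tested other splicing regulators, 12 were higher and 4 lower. MBNL1, a muscleblind protein, had 159 and 163 against 69.1 and 63.0 CPM (2.44-fold, adjusted p = 6.96e-21). QKI, which also binds introns and promotes circular RNAs, had 199 and 191 against 105 and 101 CPM (1.89-fold), and SREK1, an SR-related protein, 109 and 115 against 66.4 and 70.2 CPM (1.64-fold). MBNL1 overlaps MBNL1-AS1 on the opposite strand.

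Of the kinases that phosphorylate SR proteins, SRPK1 was called higher and SRPK2 lower. SRPK1 had 159 and 164 against 107 and 110 CPM (1.49-fold higher, edgeR adjusted p = 8.55e-10), while SRPK2 had 68.5 and 71.2 against 83.0 and 92.8 CPM (log2 -0.33 ± 0.07, adjusted p = 0.000253), and the phosphatase subunit PPP1CC was higher (log2 0.38 ± 0.07). In all, 2 of the 13 tested genes of this list were higher and 1 lower (all genes 16.7% and 14.1%). The list also holds TNPO3, which is neither a kinase nor a phosphatase gene and did not pass. CLK1, CLK3 and CLK4 did not pass, and CLK2 had 0 counts in all libraries. CLK2 is also listed on 1 alternative sequence, like PRPF8, so its 0 cannot be taken as a lack of transcript. Of 18 genes of the exon junction complex and of nonsense-mediated decay, 3 were higher and 2 lower. The paralogs UPF3B (1.20-fold) and UPF3A (log2 -0.28 ± 0.08) were called in opposite directions, with both calls lost without replicate 2 labelled HMGB2 siRNA and that of UPF3A also without replicate 1 (largest adjusted p = 0.29 and 0.284), and the decay cofactor PNRC2 was higher (log2 0.38 ± 0.07). Of 19 snRNP assembly genes, 4 were higher and 2 lower, among them the snRNA export adaptor PHAX (1.35-fold), the SMN complex partner STRAP (1.28-fold) and GEMIN8 (log2 -0.53 ± 0.11). SRPK2 overlaps exons of KMT2E on the opposite strand.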

How the data were processed

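The authors deposited 1 table of unnormalized whole-number read counts per gene for each library, per the file headers. STAR, SAMtools 1.9, featureCounts of Subread 1.6.3 and DESeq2 are named with hg38 (GRCh38) in the submitters' processing notes; how strand, multimapping and overlaps were handled is not given in the sources used here. Groups follow the sample labels, and files follow their deposited samples. All genes were fitted by quasi-likelihood in edgeR 4.0.16 under R 4.3.3 (group as the only term, TMM scaling, filterByExpr with a smallest count of 10 and total of 15), with Benjamini-Hochberg adjustment over 15161 genes and calls at an adjusted p under 0.05. SE is the log2 fold change divided by the root of F. TPM was computed from the counts and merged exon lengths on the primary chromosomes. Tested on simulated data (14933 genes, drawn for this comparison, 50 of them changed at each fold), the fit recovered 32% at 1.25-fold, 70% at 1.5-fold and 90% at 2-fold, and made 7 false calls. In the deposited data 30.8% of tested genes were called, a far larger share than was changed in the simulation. These rates therefore need not hold for the deposited data.

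The members, lists and heptamers were chosen with earlier results of these data known. Named members are the 8 of largest difference in each direction among called members with at least 5 CPM and no overlap of groups, up to 4 of smallest p and the 2 of highest CPM in each family, and up to 3 of smallest p in each other list. For 3′UTRs the longest annotated one per gene in GENCODE 29 (GRCh38), of at least 50 bases, was used. The fits were repeated with scaling by RLE, upper quartile or total count, 2 other low-count filters, DESeq2 1.42.0, limma-voom (limma 3.58.1), a replicate block, each library left out, and members without pseudogenes or without exon overlap.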

Additional observations from a re-analysis of the deposited data

How the results depend on the processing

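HMGB2 kept its direction and call in all 12 settings. Members called higher numbered 33, and 14 to 37 with 1 library left out; members called lower numbered 4, and 1 to 7 with 1 library left out, 9 with upper-quartile and 9 with total-count scaling, and 1 among members without exon overlap. Over all genes, calls ranged from 1481 to 2904 higher (2536 with all libraries) and from 903 to 2291 lower (2135) with 1 library left out, and DESeq2 called 1284 lower. The median of the tested members moved from 0.089 to 0.038 with upper-quartile and 0.041 with total-count scaling and to 0.104 without a low-count filter, and lay between 0.083 and 0.137 with 1 library left out. The median of all genes moved alongside, from -0.0063 to -0.057 with upper-quartile and -0.0532 with total-count scaling. Of the 37 called members 26 lost the call in at least 1 setting: 22 without replicate 1 and 19 without replicate 2 labelled HMGB2 siRNA, 11 with upper-quartile scaling, 8 with total counts and 4 with DESeq2. Of the 22 and 19 calls lost without a library labelled HMGB2 siRNA, 19 and 16 kept at least 0.8 of their log2 fold change. Lost calls were not counted over all called genes, so these counts of members have no share beside them. None of the 38 members named by the naming rule reversed direction past the threshold. The replicate block called 30 members higher and 4 lower, of 2446 and 2011 genes in all; same-numbered libraries did not deviate together (correlation -0.0144), so the numbers are not treated as pairs. A fit without 1 library leaves a lone sample that is assumed to vary like the others. Where the library left out was labelled HMGB2 siRNA, the spread came from the scramble pair alone, whose libraries differed more from each other. The smallest difference of a member called higher at this depth was 1.12-fold.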
